A study of Mus musculus with 19 samples.

Results

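The experiment described here is the earliest step of a tamoxifen time course in FDCPmix, an interleukin-3-dependent line of multipotent mouse blood progenitors. It comprised the 4 arrays whose source label gives treated FDCPmix cells at 3 h, out of 19 arrays in the series. On each of these arrays the RNA of cells 3 h after tamoxifen, the array's own RNA, was hybridised together with a reference RNA from cells of the same treatment at 0 h. The own RNA was labelled with Cy5 in replicates 1 and 2 and with Cy3 in replicates 3 and 4. The rest of the series held 4 arrays at 7 h, 4 at 12 h and 3 at 23 h, also against a 0 h reference. Another 4 arrays held treated cells, with no time stated, against non-treated cells. Replicate 2 at 23 h was not analysed here. For the dose, the vehicle and any transgene on which tamoxifen acts, nothing is given in the sources used here, and the words ES cell line in the labels are not explained. A protocol text that speaks of organs and of a pool of control animals is at odds with cultured cells. Nothing in the labels says that the replicates were separate cultures, so the p-values below measure only a spread between arrays, which may be technical. The test on the 4 arrays removes the difference between dye orientations. Its p-values therefore rest on the spread between arrays of the same orientation.

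Tamoxifen is a ligand of the oestrogen receptor, and cell lines that carry a receptor ligand-binding domain fused to another protein use it as a switch. Many of the genes described below belong to the response to low oxygen. In oxygen, prolyl hydroxylases of the Egln family mark the HIF alpha subunits, and the Vhl complex then sends them for degradation. When oxygen is short, HIF alpha pairs with Arnt and raises genes of glucose uptake, glycolysis, mitochondrial turnover and blood vessel growth through sites that hold the letters ACGTG. Dividing blood progenitors also run a high rate of glycolysis under growth factor signalling.

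Every value is a log2 ratio of the own RNA over the 0 h reference, centred on its array's median. A value below 0 means less RNA at 3 h if, as was assumed, the own RNA is the numerator of the deposited ratio and the log has base 2. The labels settle neither point. The deposited signs were kept because a value that each array repeats on a few spots is above 0 where the own RNA carries Cy5 and below 0 where it carries Cy3, with 7 h replicate 4 as the only exception in the series. Changing the sign of both Cy3 arrays is the other reading, and its values are given for the leading genes and gene groups. Because ratios hold no levels, the labelled cell type could not be checked against its defining markers. Between 20072 and 20147 spots gave a value on the 4 arrays, and the SD of the ratios over an array lay between 0.266 and 0.347. Arrays of the same orientation had a Spearman correlation over features of 0.33 (replicates 1 and 2) and 0.15 (replicates 3 and 4), and arrays of opposite orientation had one of 0.055 to 0.091. These are correlations across genes, which are not independent replicates.

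No feature passed an adjusted p of 0.05 at 3 h in limma's moderated test of the mean over both orientations, with Benjamini-Hochberg adjustment over all 16108 genes and unnamed probes tested (0% called). At an unadjusted p under 0.05 the test gave 1821 features, 822 lower and 999 higher. Bnip3, Ndrg1 and the pair Selenbp1 and Selenbp2 had the 4 lowest means among named genes that lay on the same side of 0 on all 4 arrays under the deposited signs. With the Cy3 signs changed their means were 0.33 for Bnip3, 0.12 for Ndrg1, 0.03 for Selenbp1 and 0.26 for Selenbp2, all on the other side of 0, so the direction and the ranking of these genes rest on the sign reading. The smallest adjusted p was that of Bnip3, 0.0658. High means were also present, the largest even one of a named gene being Psmg2 at 1.22.

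Bnip3 encodes an outer mitochondrial membrane protein that drives mitophagy and is a textbook HIF target. Its log2 ratio was -1.09 and -1.01 on replicates 1 and 2, and -1.74 and -1.69 on replicates 3 and 4. All 4 arrays lay far below 0, and those with the own RNA in Cy3 lay lower. The mean was -1.38 (SE 0.05 after removal of the dye difference, SD 0.38 over arrays, n = 4), which on a base of 2 is 2.61 times less RNA than at 0 h.

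Ndrg1, a stress and differentiation gene that low oxygen and iron depletion induce, gave -1.20, -0.86, -1.29 and -1.25 on replicates 1 to 4. All 4 arrays lay well below 0, and those with the own RNA in Cy3 lay slightly lower than the others. The mean was -1.15 (SE 0.07, SD 0.20, n = 4, limma adjusted p = 0.255), or 2.22 times less RNA on a base of 2.

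Bnip3l, the close relative of Bnip3 that clears mitochondria in maturing red cells, did not share these values. It gave 0.91, 1.54, 0.27 and -0.58, with 3 arrays above 0 and 1 below, and a mean of 0.54 (SE 0.18). The single probe of Bnip3l thus stood on the other side of 0 from the single probe of Bnip3 on 3 of 4 arrays.

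The hypoxia response list outside glycolysis had 28 genes, of which 22 were tested. Of these, 18 had a mean below 0 where 50% of all features did, and 9 lay below 0 on all 4 arrays where 10.5% of features with 4 values did. At an unadjusted p under 0.05, 11 were lower (5.1% of all features) and 1, Bnip3l, was higher (6.2% of all features). Their median was -0.13 against 0 over all features, with array medians of -0.15, -0.16, -0.22 and -0.27 on replicates 1 to 4. With the Cy3 signs changed the median became 0.11.

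Fam162a, a HIF-induced mitochondrial protein linked to cell death, gave -0.58, -0.54, -1.19 and -0.54, so that replicate 3 lay well under the other 3 arrays. Its mean was -0.71 (SE 0.12). Higd1a, which helps the respiratory chain in low oxygen, gave -0.27, -0.28, -0.59 and -0.64, and its mean was -0.44 (SE 0.05, limma adjusted p = 0.389). Ddit4, an inhibitor of mTORC1, had a mean of -0.46 (SE 0.07) with a range of -0.58 to -0.32. Each of these genes lay below 0 on every array.

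Vegfa, the main blood vessel growth factor of the response, had a mean of -0.31 (SE 0.06), the transcriptional repressor Bhlhe40 one of -0.35 (SE 0.07) and Pdk1, the kinase that keeps pyruvate out of the mitochondrion, one of -0.19 (SE 0.06). All 12 of these array values were below 0. Ero1a, an oxidase of the endoplasmic reticulum, stood at 0.43 and -0.05 on the Cy5 arrays and at -0.77 and -0.83 on the Cy3 arrays. Its mean of -0.30 (SE 0.09) therefore rested on 1 dye orientation. The collagen prolyl hydroxylase subunit P4ha1 stood at -0.01 and the secreted glycoprotein Stc2 at 0.07.

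**Figure D1:**
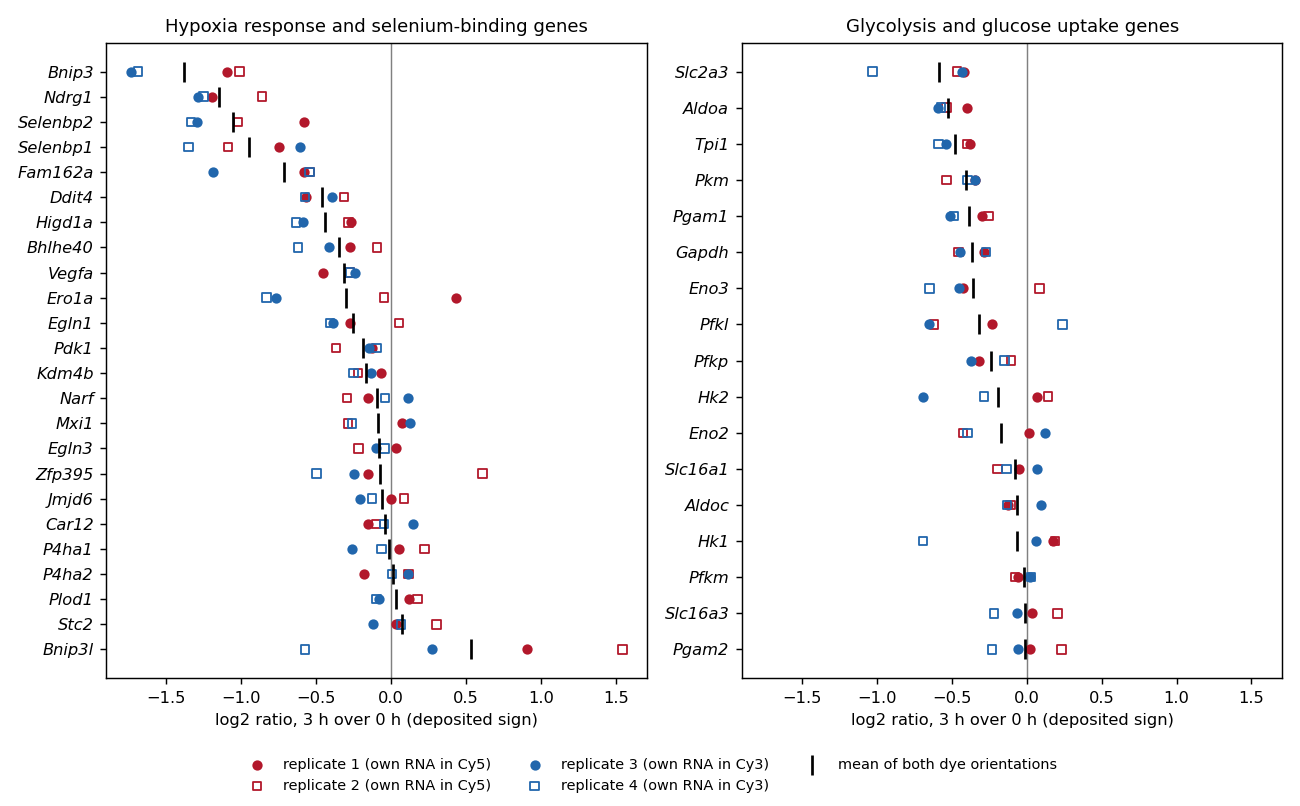
Log2 ratio of 3 h over 0 h (horizontal axis, deposited sign) for the tested genes of the hypoxia response and selenium-binding lists (left) and of the glycolysis list (right), with 1 symbol per array and a bar at the mean of both dye orientations. Bnip3, Ndrg1, Selenbp1 and Selenbp2 lie between -1.74 and -0.58 on every array, and Ldhb is not drawn because its arrays spread from -2.13 to 3.37.

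The oxygen sensing genes themselves stood closer to 0. Of 9 tested, 5 had a mean below 0 and the median was -0.08. Hif1a, the regulated alpha subunit, stood at 0.02 (SE 0.07), its partner Arnt at 0.10 (SE 0.10) and Vhl, which binds hydroxylated HIF alpha, at -0.09 (SE 0.05). The prolyl hydroxylase Egln1, itself a HIF target, was the only member with an unadjusted p under 0.05, with -0.28, 0.05, -0.39 and -0.41 on replicates 1 to 4 and a mean of -0.26 (SE 0.07). These are RNA values, and HIF alpha is controlled mainly at the protein.

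Genes of glycolysis and glucose uptake had the lowest median of the lists, after the pair of selenium-binding genes. Of 25 listed, 18 were tested, and Ldha, Pgk1, Eno1, Slc2a1, Gpi1, Hk3 and Pfkfb3 had no tested feature. Means below 0 were found for 17 of the 18 (against 50% of all features). On all 4 arrays, 7 lay below 0 and none above (10.5% and 11.1% of features with 4 values). At an unadjusted p under 0.05, 8 were lower and none higher (5.1% and 6.2% of all features). The median was -0.21, and the array medians were -0.18, -0.23, -0.36 and -0.34. With the Cy3 signs changed the median became 0.04.

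Along the pathway, the glucose transporter Slc2a3 gave -0.42, -0.47, -0.43 and -1.03, and its mean was -0.59 (SE 0.11). Aldoa, the aldolase that splits fructose bisphosphate, gave -0.40, -0.53, -0.59 and -0.57, with a mean of -0.52 (SE 0.05, limma adjusted p = 0.332). Its 3 probes had means of -0.48, -0.44 and -0.65. Aldoa was thus below 0 on each probe and each array, within a narrow range.

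Tpi1, triose phosphate isomerase, gave -0.38, -0.40, -0.54 and -0.59 with a mean of -0.48 (SE 0.05), but its 2 probes disagreed at -0.08 and -0.88. Gapdh stood at -0.37 (SE 0.06), with probe means of -0.24 and -0.50. Pgam1, phosphoglycerate mutase, gave -0.30, -0.26, -0.52 and -0.49, and the mean was -0.39 (SE 0.05). Pkm, pyruvate kinase, stood at -0.41 (SE 0.06), with all 4 arrays between -0.54 and -0.34. Aldoa, Tpi1, Gapdh, Pgam1 and Pkm, which follow each other in the lower pathway with the untested Pgk1 and Eno1 between them, thus lay below 0 on all 4 arrays.

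Among the enolases, the muscle form Eno3 stood at -0.36 (SE 0.10) with replicate 2 at 0.09, and the neuronal form Eno2 at -0.17 (SE 0.12). Eno1b, a retrogene copy of Eno1 whose probe may also read Eno1, gave -0.31, -0.07, -0.83 and -1.05. Of the early enzymes, Hk2, the inducible hexokinase, gave 0.07, 0.14, -0.69 and -0.29, and Hk1 had a mean of -0.07 (SE 0.14). The phosphofructokinases Pfkl (-0.32, SE 0.17), Pfkp (-0.24, SE 0.07) and Pfkm (-0.02, SE 0.05) differed in their means, and the probes of Pfkl (-0.10 and -0.54) and of Pfkp (-0.54 and 0.07) disagreed.

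The tissue-restricted forms Aldoc (-0.07, SE 0.06) and Pgam2 (-0.01, SE 0.07) and the lactate carriers Slc16a1 (-0.08, SE 0.06) and Slc16a3 (-0.01, SE 0.06) had means close to 0. Ldhb, the heart form of lactate dehydrogenase, was the 1 member with a mean above 0, at 0.06, and its arrays did not agree (0.15, -2.13, 3.37 and -1.16). Pgm1, phosphoglucomutase, which links glycogen to glycolysis, gave -0.65, -0.16, -1.03 and -0.99 with a mean of -0.71 (SE 0.10). The list of glycogen and sugar nucleotide metabolism to which Pgm1 belongs did not share that value, with 5 of 11 tested members below 0 and a median of 0.01. The glycogen phosphorylases Pygb (0.13) and Pygm (0.12) stood slightly above 0.

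Selenbp1 and Selenbp2 encode near-identical cytosolic selenium-binding proteins, of which SELENBP1 acts as a methanethiol oxidase. Selenbp2 gave -0.58, -1.02, -1.29 and -1.34, with a mean of -1.06 (SE 0.09, limma adjusted p = 0.27). Selenbp1 gave -0.75, -1.09, -0.61 and -1.35, with a mean of -0.95 (SE 0.15). Because the transcripts are so alike, the probes may read both, and the values are not 2 independent measurements.

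Promoter sequences are shown for Bnip3, for both selenium-binding genes, for Aldoa, Tpi1 and Pgam1, the 3 glycolysis genes with the smallest p, and for Pgm1. For Aldoa, which has 3 listed starts, a window without a match and the next one, with a match, are both given. Each is the 250 bases before the RefSeq start site in GRCm38.p6, written 5′ to 3′ on the gene's strand, and the capitals mark ACGTG or its reverse complement CACGT, searched on both strands and merged where matches overlap. The array design and these promoters are matched by gene symbol only.

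Bnip3, chr7:138909507-138909756, strand -: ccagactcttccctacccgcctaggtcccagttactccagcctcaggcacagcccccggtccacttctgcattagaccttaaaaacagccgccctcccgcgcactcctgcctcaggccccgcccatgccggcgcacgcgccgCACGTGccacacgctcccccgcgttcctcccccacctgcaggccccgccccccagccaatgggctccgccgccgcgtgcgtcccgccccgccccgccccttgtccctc

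Aldoa, chr7:126800448-126800697, strand -: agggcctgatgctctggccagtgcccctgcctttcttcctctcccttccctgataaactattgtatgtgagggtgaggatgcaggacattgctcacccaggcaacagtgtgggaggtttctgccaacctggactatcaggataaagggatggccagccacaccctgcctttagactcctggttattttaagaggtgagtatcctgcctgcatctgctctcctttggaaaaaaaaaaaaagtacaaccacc

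Aldoa, chr7:126799255-126799504, strand -: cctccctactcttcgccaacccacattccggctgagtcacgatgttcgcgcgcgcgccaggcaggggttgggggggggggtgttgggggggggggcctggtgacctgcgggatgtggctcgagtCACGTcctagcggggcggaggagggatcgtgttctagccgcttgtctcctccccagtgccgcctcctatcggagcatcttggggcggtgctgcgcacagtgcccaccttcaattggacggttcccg

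Tpi1, chr6:124814159-124814408, strand -: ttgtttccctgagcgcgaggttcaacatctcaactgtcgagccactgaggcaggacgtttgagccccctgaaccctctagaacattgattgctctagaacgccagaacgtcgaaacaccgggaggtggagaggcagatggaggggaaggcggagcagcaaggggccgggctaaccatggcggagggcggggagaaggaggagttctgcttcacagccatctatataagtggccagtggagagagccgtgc

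Pgam1, chr19:41911621-41911870, strand +: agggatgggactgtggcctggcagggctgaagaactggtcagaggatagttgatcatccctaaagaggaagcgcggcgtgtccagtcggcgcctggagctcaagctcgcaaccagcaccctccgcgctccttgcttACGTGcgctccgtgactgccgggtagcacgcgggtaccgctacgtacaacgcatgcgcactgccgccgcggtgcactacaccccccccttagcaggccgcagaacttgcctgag

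Pgm1, chr4:99929201-99929450, strand +: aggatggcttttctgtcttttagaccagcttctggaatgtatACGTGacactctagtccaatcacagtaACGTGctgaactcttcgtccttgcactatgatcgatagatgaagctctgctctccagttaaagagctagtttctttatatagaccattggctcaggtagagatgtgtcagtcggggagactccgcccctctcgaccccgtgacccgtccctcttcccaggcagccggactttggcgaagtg

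Selenbp1, chr3:94932833-94933082, strand +: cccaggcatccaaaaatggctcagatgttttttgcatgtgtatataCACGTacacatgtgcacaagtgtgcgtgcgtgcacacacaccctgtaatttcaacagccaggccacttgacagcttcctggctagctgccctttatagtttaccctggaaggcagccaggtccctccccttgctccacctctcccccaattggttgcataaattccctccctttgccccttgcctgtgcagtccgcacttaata

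Selenbp2, chr3:94693323-94693572, strand +: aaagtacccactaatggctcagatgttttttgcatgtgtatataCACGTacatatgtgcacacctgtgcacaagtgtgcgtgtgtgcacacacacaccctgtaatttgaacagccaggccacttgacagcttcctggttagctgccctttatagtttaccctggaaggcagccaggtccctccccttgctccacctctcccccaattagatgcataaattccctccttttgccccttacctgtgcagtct

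The Bnip3 promoter held a palindromic match, read once on each strand, 108 bases before the start, and the Pgam1 promoter held 1 match 114 bases before it. The Pgm1 promoter held 2, at 208 and 181 bases before the start. Selenbp1 and Selenbp2 held 1 each, at 204 and 206 bases. The Selenbp1 and Selenbp2 promoters aligned with 93.7% identity (223 identical and 15 mismatched bases, 24 gap positions). Their matches are separate sites on chromosome 3 in near-identical sequence, and are not independent of each other. Aldoa had a match before 2 of its 3 listed starts, 126 bases before the second and 202 before the third. These 2 Aldoa windows overlap, and the match is 1 site that both hold. The Tpi1 window held none. In the table, 4998 of 27025 genes (18.5%) had such a match, against 7 of 17 glycolysis genes with a promoter (41.2%), 11 of 17 of the hypoxia list (64.7%) and 3 of 17 of the sterol list (17.6%). A match describes letters in a window and is not a bound site, and the hypoxia list was itself drawn from known HIF targets.

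**Figure D2:**
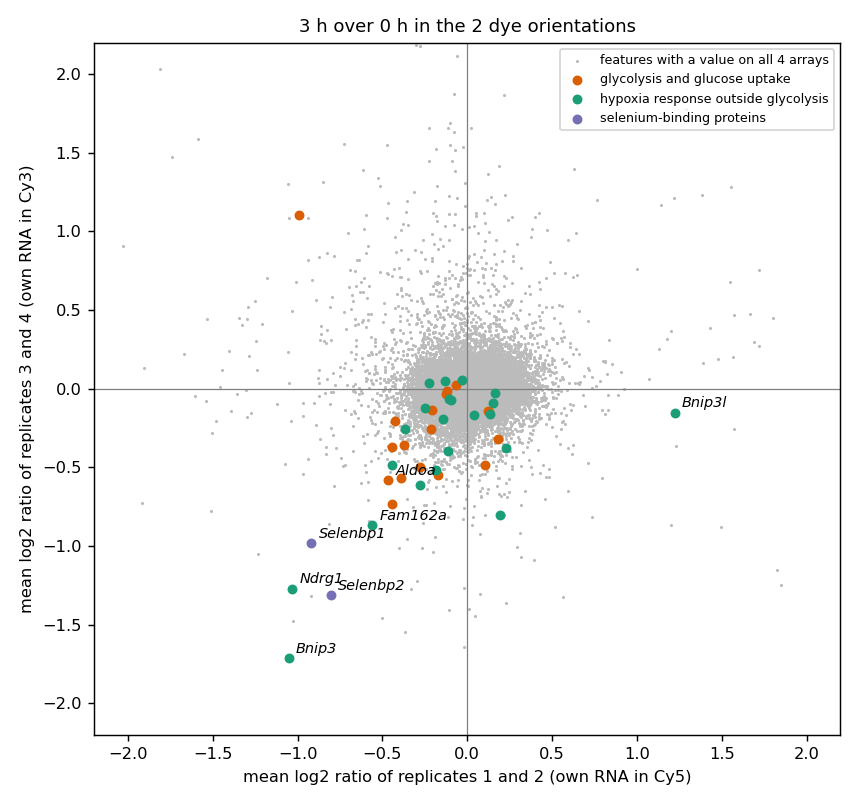
Mean log2 ratio of the Cy5 arrays (horizontal) against that of the Cy3 arrays (vertical), 1 point for each of 15962 features with 4 values, of which 9 lie outside the axes. Bnip3, Ndrg1, Selenbp1 and Selenbp2 lie in the lower left, below 0 in both orientations, and Bnip3l lies on the right.

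Among the other named genes with the 10 smallest p-values, Nudt6, a nudix hydrolase that overlaps the Fgf2 gene in antisense, was the only one above 0. It gave 0.17 and 0.08 on the Cy5 arrays and 1.37 and 1.36 on the Cy3 arrays, so its mean of 0.74 (SE 0.05) averages 2 separate levels and depends on the dye. Gpr160, an orphan receptor, also split by dye, at -0.80 and -0.86 against -0.35 and -0.39, with a mean of -0.60 (SE 0.05). The 4 arrays of Mphosph6, a cofactor of the RNA exosome, lay between -0.61 and -0.51 with a mean of -0.56 (SE 0.05, limma adjusted p = 0.27).

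Mt1, a metallothionein that binds zinc and copper, gave -0.59, -0.57, -0.97 and -0.70 and a mean of -0.71 (SE 0.07). Ier3, an immediate early gene of survival signalling, gave -0.71, -0.55, -0.66 and -0.54 and a mean of -0.61 (SE 0.06, limma adjusted p = 0.313 for both genes). The fifth lowest of the even means belonged to Zfyve1, a marker of endoplasmic reticulum sites where autophagosomes form, at -0.84 (SE 0.13) with a range of -1.11 to -0.53. These genes lay below 0 on all 4 arrays.

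On the other side, the 5 highest means of named genes with all 4 arrays above 0 were Psmg2 (1.22, SE 0.38), Tbc1d20 (0.80, SE 0.27), Rab1b (0.78, SE 0.30), Gpsm1 (0.77, SE 0.26) and Tex35 (0.77, SE 0.20). Psmg2 is a chaperone of proteasome assembly, and Tbc1d20 and Rab1b are a GTPase-activating protein and a GTPase of early secretory traffic. Their arrays spread far more than those of the low genes. Psmg2 ran from 0.14 to 2.30, Rab1b from 0.16 to 2.27 and Tbc1d20 from 0.15 to 2.196. Each high mean except that of Tex35 moved by over 1.5 times when 1 array was left out.

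Genes of sterol and lipid synthesis, the targets of the SREBP factors, were another group with small values on 1 side. Of 23 tested, 21 had a mean below 0 (against 50% of all features). On all 4 arrays, 8 lay below 0 and 1 above (10.5% and 11.1% of features with 4 values). At an unadjusted p under 0.05, 7 were lower and none higher (5.1% and 6.2% of all features). The median was -0.08, with array medians of -0.11, -0.09, -0.13 and -0.10, and 0.04 with the Cy3 signs changed. Leaving out replicate 1 brought the median to -0.04.

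Scd2, a fatty acid desaturase, gave -0.57, -0.33, -0.46 and -0.60 (mean -0.49, SE 0.07). Fdps, which makes farnesyl diphosphate, gave -0.40, -0.66, -0.42 and -0.45 (mean -0.48, SE 0.06). Hmgcs1, the enzyme before HMG-CoA reductase, stood at -0.27 (SE 0.05) and Mvd, the last step to isopentenyl diphosphate, at -0.32 (SE 0.07). Fdps, Scd2, Hmgcs1 and Mvd lay below 0 on every array.

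FDCPmix cells depend on interleukin-3, which signals through Jak2 and Stat5. Of 18 tested genes of that pathway and its targets, 14 had a mean below 0 (against 50% of all features). On all 4 arrays, 6 lay below 0 and 2 above (10.5% and 11.1% of features with 4 values). At an unadjusted p under 0.05, 4 were lower and none higher (5.1% and 6.2% of all features). The median was -0.09, and 0.0045 with the Cy3 signs changed. Replicate 1 had a list median of -0.006, and without replicate 2 the median was -0.0493. Cish, a Stat5-induced feedback inhibitor, gave -0.41, -0.67, -0.31 and -0.28, with a mean of -0.42 (SE 0.07). The survival kinase Pim1 stood at -0.32 (SE 0.06), the receptor chain Csf2rb at -0.24 (SE 0.06) and the BCL2 relative Mcl1 at -0.23 (SE 0.05). All 4 of these genes were below 0 on every array.

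The immediate early and MAP kinase feedback list had 12 of 19 tested members below 0 (against 50% of all features) and a median of -0.06. Of them, 5 lay below 0 on all 4 arrays and 2 above (10.5% and 11.1% of features with 4 values). An unadjusted p under 0.05 was found for 5 lower members and none higher (5.1% and 6.2% of all features). Zfp36, an mRNA-destabilising protein, stood at -0.22 (SE 0.10). In the apoptosis and p53 list, 9 of 16 were below 0 (median -0.02). Cdkn1a, the p21 inhibitor of the cell cycle, gave -0.18, -0.21, -0.38 and -0.60 there, and Bcl2l11, a killer protein that growth factor loss induces, stood at -0.27 (SE 0.08) with replicate 1 at -0.61. Antioxidant and metallothionein genes had no common side, with 11 of 22 tested members, Mt1 among them, below 0.

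Cytosolic ribosomal protein genes lay slightly below 0, with 45 of 56 below 0 (against 50% of all features) and a median of -0.10. On all 4 arrays, 17 lay below 0 and none above (10.5% and 11.1% of features with 4 values). At an unadjusted p under 0.05, 11 were lower and 1 higher (5.1% and 6.2% of all features). Replicate 1 did not share the shift: its median was 0.01, against -0.10, -0.22 and -0.07 on replicates 2 to 4. With the Cy3 signs changed the list's median was 0.04, without replicate 3 it was -0.0524 and without replicate 4 it was -0.15. The members farthest below 0, Rpl7 (-0.30, SE 0.11) and Rpl5 (-0.26, SE 0.10), each had 1 array just above 0. Ribosomal protein genes have many near-identical pseudogenes, which probes can share.

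Ribosome biogenesis factors stood on the other side, with 13 of 38 below 0 and a median of 0.03. Nop58, a core protein of box C/D snoRNPs, gave 0.23, 0.45, 0.33 and 0.25 (mean 0.31, SE 0.06), and Nop16 had a mean of 0.31 (SE 0.10) with replicate 4 at -0.01. Translation factors (22 of 40 below 0, median -0.02) and oxidative phosphorylation genes (43 of 79 below 0, median -0.01) were split about evenly. Proteasome subunits had 11 of 32 below 0 and a median of 0.02, with Psmd2, a base subunit of the regulatory particle, at 0.20 (SE 0.05) and above 0 on all 4 arrays.

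Among cell cycle genes, the G2 and M phase list had a median slightly above 0 and the S phase list did not. Of 42 tested G2 and M genes, 12 were below 0 (against 50% of all features). On all 4 arrays, 6 lay above 0 and none below (11.1% and 10.5% of features with 4 values). At an unadjusted p under 0.05, 6 were higher and none lower (6.2% and 5.1% of all features). The median was 0.07, with array medians of 0.09, 0.06, 0.04 and 0.08, and -0.0034 with the Cy3 signs changed. The centromeric histone Cenpa stood at 0.22 (SE 0.07) and the kinase cofactor Cks2 at 0.28 (SE 0.13), the latter resting on replicate 2 at 0.79. Of 38 tested S phase genes, 20 were below 0 and the median was -0.02. Gins1, a subunit of the replicative helicase, had a mean of -0.28 (SE 0.11) that rested on replicate 4 at -0.78.

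Of 24 unfolded protein and amino acid stress genes, 10 were below 0 (against 50% of all features). On all 4 arrays, 5 lay below 0 and 1 above (10.5% and 11.1% of features with 4 values). At an unadjusted p under 0.05, 4 were lower and none higher (5.1% and 6.2% of all features). The list's median of 0.02 changed side under quantile normalization and under scaling of the arrays. The 2 members farthest above 0 were Slc3a2, at 0.48 (SE 0.20), and Chac1, at 0.30 (SE 0.19). Their values spread widely, with replicate 4 at 1.61 for Slc3a2 and at 1.13 for Chac1, and each had 1 array below 0. Hspa5, the chief chaperone of the endoplasmic reticulum, stood at -0.21 (SE 0.06), Atf4 at -0.16 (SE 0.06) and Ddit3 at 0.18 (SE 0.12). Heat shock proteins and the chaperonin had 12 of 24 below 0. Hsph1, a co-chaperone of Hsp70, reached 1.22 on replicate 3 and -0.29 on replicate 2.

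The targets expected of tamoxifen as an oestrogen receptor ligand, listed from general knowledge, showed little. Of 13 tested oestrogen receptor, coregulator and response genes, 6 were below 0, and none had an unadjusted p under 0.05 in limma's test. Esr1, the receptor, stood at -0.06 (SE 0.06), with 4 probes between -0.16 and 0.03. These probes would not tell a receptor fusion transgene from the gene itself. The median of 0.02 changed side under quantile normalization and under scaling.

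**Figure D3:**
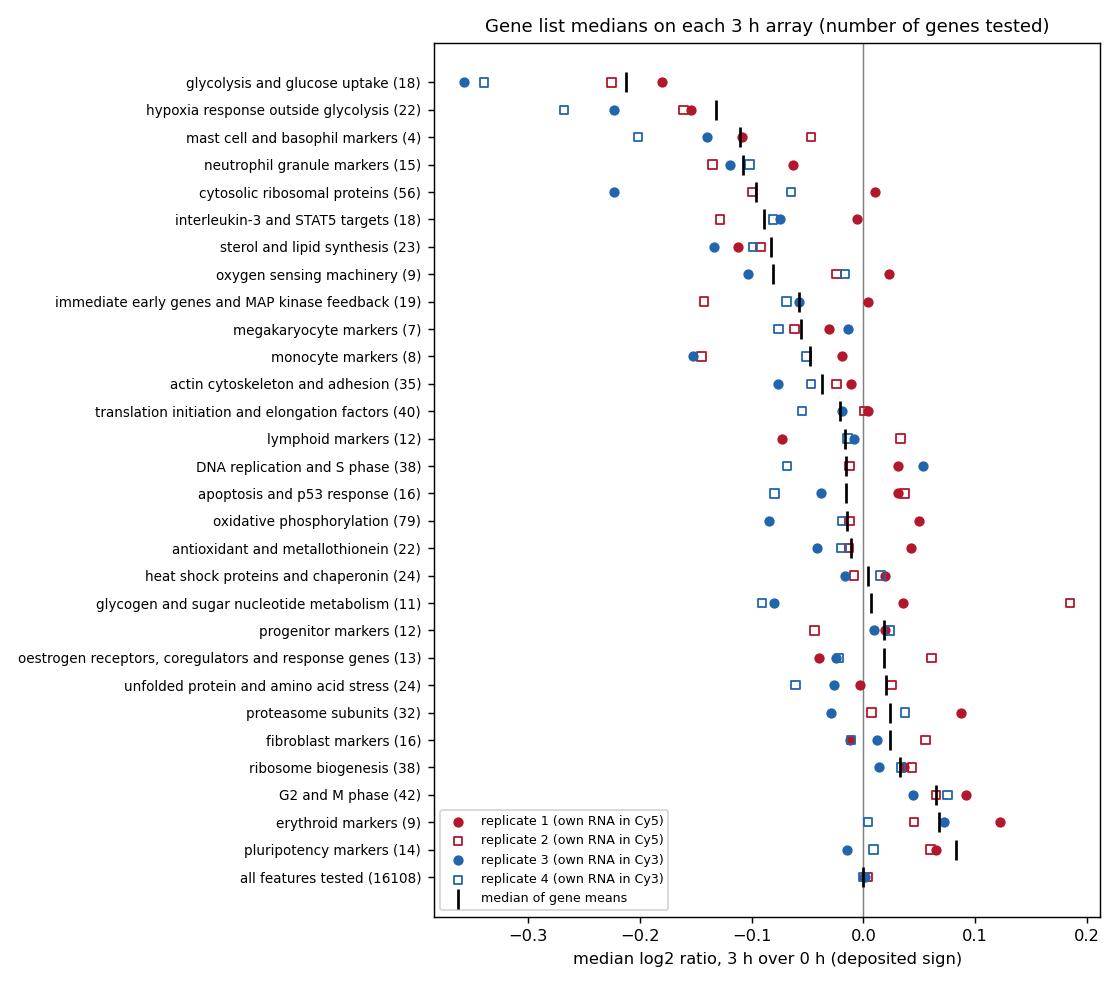
Median log2 ratio of each gene list (rows, number of genes tested in brackets) on each of the 4 arrays (symbols), with a bar at the median of the genes' means. Glycolysis and hypoxia response lie between -0.36 and -0.15 on every array, while all features together lie at 0. The pair of selenium-binding genes, with a median of -1.004, is not drawn.

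Markers of blood lineages and of other cell types that a culture could hold were read next. Neutrophil granule genes had 12 of 15 tested members below 0 (against 50% of all features). On all 4 arrays, 8 lay below 0 and 1 above (10.5% and 11.1% of features with 4 values). An unadjusted p under 0.05 was found for 3 lower and 1 higher member (5.1% and 6.2% of all features), and the means ran from -0.24 to 0.17. The neutrophil median was -0.11, which was 0.02 with the Cy3 signs changed and -0.07 without replicate 3. Camp and S100a9, antimicrobial proteins of neutrophil granules and cytosol, stood at -0.24 (SE 0.05) and -0.22 (SE 0.05), and the elastase Elane at -0.10 (SE 0.05). Mast cell and basophil markers had 3 of 4 below 0, with the basophil protease Mcpt8 at -0.41 (SE 0.06) and the mast cell carboxypeptidase Cpa3 at -0.21 (SE 0.06). Of the 17 listed mast cell and basophil genes, 13 were not tested. Monocyte markers had 5 of 8 below 0 and 3 above, with a median of -0.05 and means from -0.39 to 0.26. Another 7 listed monocyte genes were not tested. The 2 lower members at an unadjusted p under 0.05 (5.1% of all features) were Adam8 and Lyz2, and none was higher (6.2%). Adam8 stood at -0.39 (SE 0.05, with -0.43, -0.31, -0.36 and -0.44 on replicates 1 to 4) and the lysozyme Lyz2 at -0.23 (SE 0.06).

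Erythroid markers had 2 of 9 below 0 and a median of 0.07, with the haem synthesis enzyme Alas2 at 0.15 (SE 0.11) and the regulator Klf1 at 0.10 (SE 0.08). The erythroid means ran from -0.28 to 0.16. At an unadjusted p under 0.05, 1 erythroid member was lower and none higher (5.1% and 6.2% of all features). Progenitor genes had 5 of 12 below 0, with Gata2 at 0.07 and Tal1 at 0.09, both factors of blood stem and progenitor cells. The progenitor means ran from -0.18 to 0.12, and here too 1 member was lower and none higher at that threshold. Lymphoid (7 of 12 below 0), megakaryocyte (4 of 7), fibroblast (6 of 16) and pluripotency genes (6 of 14) had medians of -0.02, -0.06, 0.02 and 0.08. No member of the fibroblast or pluripotency lists had an unadjusted p under 0.05 in limma's test. The part of any change in cell makeup in the values above was not tested, and fewer cells of a type and less RNA per cell cannot be told apart in bulk RNA.

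Actin and adhesion genes had 23 of 35 below 0 (against 50% of all features) and a median of -0.04. On all 4 arrays, 10 lay below 0 and 3 above (10.5% and 11.1% of features with 4 values). An unadjusted p under 0.05 was found for 5 lower members and 1 higher (5.1% and 6.2% of all features). Gsn, which severs actin filaments, gave -0.22, -0.42, -0.42 and -0.59 (mean -0.41, SE 0.07), and the actin bundler Lcp1 had a mean of -0.34 (SE 0.07). Both were below 0 on all 4 arrays.

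The 4 arrays leave few degrees of freedom, and the same 3 h values were also tested with a spread shared over the time course. With all 15 arrays of the time course no feature passed, and the adjusted p of Bnip3 was 0.37. A pair of later arrays is in doubt. On 7 h replicate 4 the repeated extreme value carries the sign of the other dye, and on 23 h replicate 3 the deposited median was 0.233 and the values oppose those of its group, which was seen in the outcome itself. Without both, 15 features were lower (0.0931% of those tested) and 1 was higher (0.00621%) at an adjusted p of 0.05. Leaving out arrays that disagree with their group lowers the spread, so these adjusted p-values can be too small.

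The 15 lower features held 12 named genes, each with the 3 h mean given above: Bnip3 and Ndrg1 (limma adjusted p = 0.00012 each), Mt1 (0.00187), Selenbp2 (0.00278), Selenbp1 (0.00332), Ier3 (0.0036), Aldoa (0.00549), Fam162a (0.0217), Fdps, Scd2 and Adam8 (0.0335 each) and Pgm1 (0.0436). Tpi1 missed the threshold at 0.0508. The remaining 4 called features, including the 1 that was higher, were probes without a gene name. With the Cy3 signs changed on the 4 arrays, 1 feature was called (0.00621%), an unnamed probe at -1.60, and none of these genes. Under that reading the means of Fam162a, Mt1, Aldoa, Tpi1, Pgm1 and Ier3 were 0.15, 0.13, 0.06, 0.09, 0.30 and -0.01.

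Against the later times, the question was whether 3 h differed from what followed. The contrast of 3 h with the mean of the 7 h, 12 h and 23 h means called none of 16024 features in limma's test (0%), with 1782 (11.1%) at an unadjusted p under 0.05. The 5 genes with the smallest p there were Ykt6, a SNARE of vesicle fusion, Nop58, the repressor Scrt1, the splicing regulator Nsrp1 and the asparaginyl-tRNA synthetase Nars. At 3 h they stood at 0.29, 0.31, -0.24, -1.79 and 0.22, and Nsrp1 ran from -3.54 to 0.07. All times share the 0 h reference RNA, so their values are set side by side below.

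Bnip3 was low at 3 h and nearer 0 later. It stood at 0.12, -0.32, -1.005 and 0.96 on 7 h replicates 1 to 4, at 0.16, 0.16, -0.62 and -0.87 at 12 h, and at -0.14, -0.23 and -0.36 on 23 h replicates 1, 3 and 4. The 3 h values lay below all of these, and the difference between 3 h and the later mean was -1.21 (limma adjusted p = 0.415), or -1.03 without the 2 arrays in doubt (adjusted p = 0.0156). Within each later time the Cy3 arrays that are not in doubt lay below the Cy5 arrays.

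Ndrg1 at 7 h stood at -0.90, -1.22 and -1.40 on replicates 1 to 3 and at 1.0 on replicate 4, the array in doubt. At 12 h its values were -0.26, -0.13, -0.55 and -0.79, and at 23 h 0.03, -0.01 and -0.13. The 3 h values of Ndrg1 overlapped those at 7 h and lay below those at 12 h and 23 h.

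Selenbp1 gave -0.72, -0.76, -0.86 and 0.72 at 7 h, -0.25, -0.06, -0.27 and -0.23 at 12 h, and 0.14, 0.00 and -0.08 at 23 h. Mt1 gave -0.59, -0.58, -0.82 and 0.94 at 7 h, -0.54, -0.14, -0.67 and -0.76 at 12 h, and -0.52, 0.54 and -0.75 at 23 h. On the arrays not in doubt, the 23 h values of Mt1 overlapped its 3 h values, and those of Selenbp1 did not. Ier3 likewise stood at -0.56, 0.55 and -0.69 at 23 h.

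Aldoa stood between -0.66 and -0.43 on 7 h replicates 1 to 3 and at 0.66 on replicate 4, between -0.63 and -0.13 at 12 h, and at -0.14, 0.07 and -0.19 at 23 h. The median of the glycolysis list was -0.15, -0.20, -0.33 and 0.33 at 7 h, -0.05, -0.13, -0.15 and -0.30 at 12 h, and -0.10, 0.04 and -0.10 at 23 h. The hypoxia list ran from -0.31 to 0.14 at 7 h, from -0.19 to -0.001 at 12 h and from -0.08 to 0.08 at 23 h. On the arrays not in doubt, the glycolysis median was below 0 at every time.

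**Figure D4:**
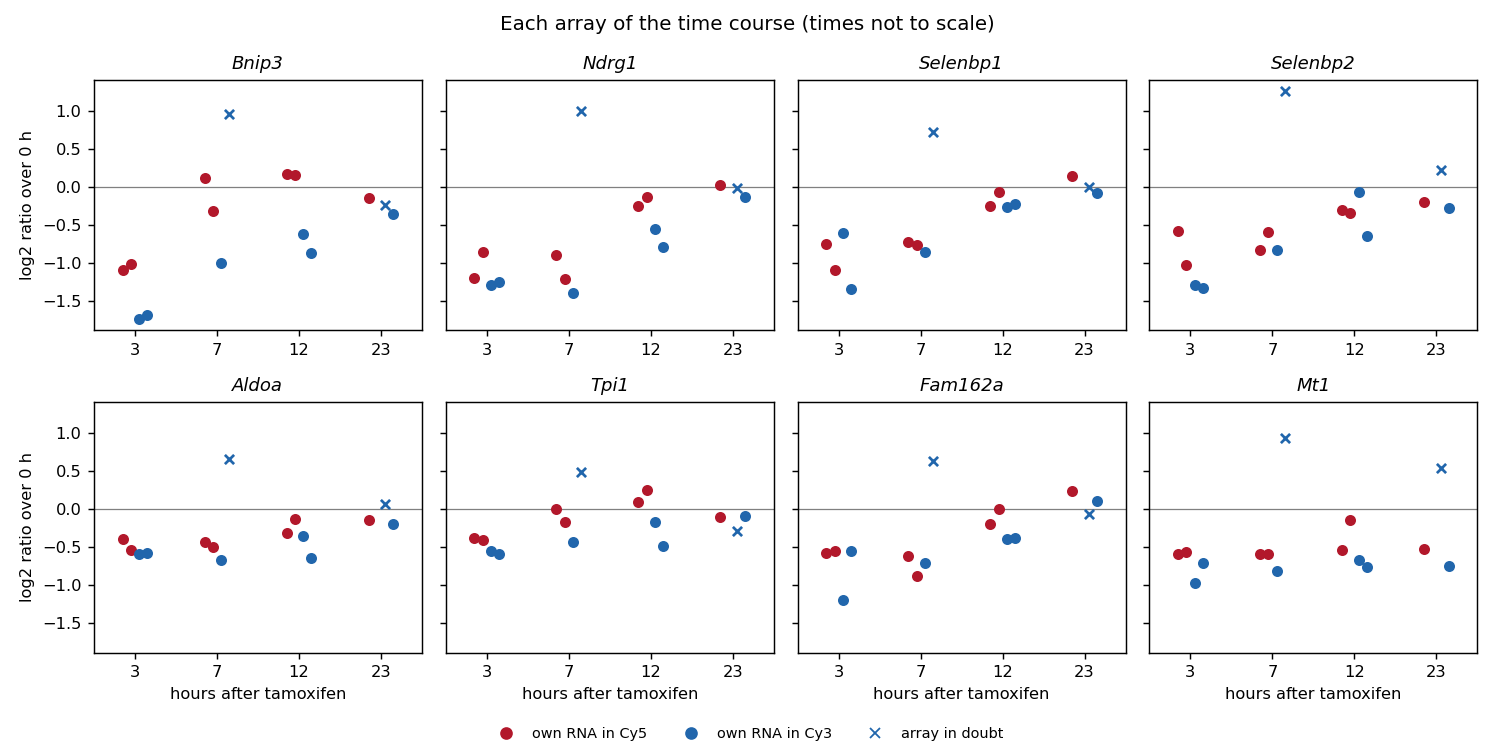
Log2 ratio over 0 h (vertical axis) on each of the 15 arrays of the time course at 3, 7, 12 and 23 h (horizontal axis, not to scale) for 8 genes, coloured by the dye of the own RNA, with crosses for both arrays in doubt. Bnip3 is lowest at 3 h, Ndrg1, Selenbp1, Selenbp2, Aldoa and Fam162a lie below 0 at both 3 h and 7 h apart from the cross, and Mt1 has arrays below 0 at all times.

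A few genes stood near 0 at 3 h and far from 0 later. Glud1, glutamate dehydrogenase, gave 0.08, 0.02, 0.33 and 0.37 at 3 h, 0.93, 0.98, 1.13 and -1.24 at 7 h, 1.38, 1.11, 1.32 and 0.999 at 12 h, and 1.16, -1.60 and 1.53 at 23 h. Apart from both arrays in doubt, which gave the values of -1.24 and -1.60, every later value of Glud1 exceeded every 3 h value. Without those arrays 5 features were lower at 3 h than later (0.0313% of 15983) and 1 was higher (0.00626%), and Glud1 had the smallest adjusted p (difference -0.997, limma adjusted p = 0.00632). Pank1, which starts coenzyme A synthesis, stood at -0.02 at 3 h (difference -0.90, adjusted p = 0.0238), and Elane at -0.10 (difference 0.53, adjusted p = 0.0238). The other called features were Bnip3, Gpr160 (difference -0.96, adjusted p = 0.0333) and an unnamed probe. With the doubtful arrays kept, none of these genes was called. The differences were then -0.50 for Glud1 (limma adjusted p = 0.697), -0.64 for Pank1 (0.442), 0.26 for Elane (0.719) and -0.77 for Gpr160 (0.415). The arrays left out are those that oppose the rest for Glud1, so the smaller adjusted p-values can be too small here too.

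The 4 arrays with no time stated had another reference, non-treated cells, and a wider spread of ratios (SD 0.619 to 0.642). Bnip3 stood at -0.94, -1.18, -1.97 and -1.43 there, Ndrg1 at -0.64, -1.13, -1.49 and -1.52, and Selenbp2 between -1.57 and -1.44. The glycolysis median was -0.24, -0.19, -0.37 and -0.33. For Bnip3 the mean of -1.38 (SD 0.44, n = 4) equalled that at 3 h to 2 decimals, and no test of a difference was run because the references differ. Mt1 stood at -0.59, 0.10, -0.84 and -0.62 on these arrays, with replicate 2 on the other side of 0.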

How the data were processed

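Total RNA was reverse transcribed, labelled indirectly with Cy3 or Cy5 and hybridised in pairs on 2-colour arrays, per the labels' protocols. The authors deposited a log ratio for each spot, and it was read as log2. Neither its base and numerator nor the scanner software and normalization are given in the sources used here. Scale and centring were checked only from the columns themselves, whose deposited medians were -0.002, -0.0105, 0.005 and 0.01 on the 3 h arrays. No spot signal or background was used.

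Values beyond 10 in size, 1 repeated extreme value on 8 to 24 spots of a 3 h array, were set to missing, and each array was centred on its median. Gene names came from the platform annotation (13891 of 20205 probes with 1 symbol, 5 with several, 6309 with none, and 13855 matched to a RefSeq gene ID). Probes of 1 gene were averaged, which gave 16148 features, of which 16108 had values on at least 3 of the 4 arrays. limma 3.58.1 in R 4.3.3 (lmFit and eBayes) tested the mean of the 4 ratios against 0 with the dye orientation as a covariate. The contrast with later times used the 15 arrays of the time course with a common dye term. Replicates shared at most 0.224% identical deposited values. The tests were checked on simulated data. The number of arrays limits the precision.

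The experiment and the 30 gene lists were chosen with earlier results of these data known. Named genes were the 10 with the smallest p and the 5 highest and 5 lowest means on 1 side on all 4 arrays. The 2 farthest members of each list on the side of its median were added. So were the glycolysis list and the 5 genes with the smallest p against later times. A set of 6 genes was fixed by name, also with earlier results of these data known (Esr1, Bnip3, Bnip3l, Ndrg1, Selenbp1 and Selenbp2). Another 29 genes were named after their values were seen, among them Fam162a, Higd1a, Ddit4, Vegfa, Bhlhe40, Pdk1, Ero1a, Eno1b, Pgm1, Hmgcs1, Mvd, Mcl1, Csf2rb, Hspa5, Atf4, Ddit3, Glud1, Pank1 and Elane. Promoters came from RefSeq (GRCm38.p6), matched by symbol, and were aligned with Biopython 1.88; the table has no entry for Ndrg1. Alternatives covered the dye term, the arrays in the fit, array weights, the sign reading, normalization, centring, extreme values, missing values, probe averaging, orientation, left-out arrays and a replicate block.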

Additional observations from a re-analysis of the deposited data

Results flagged for a closer look

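A sample far from the rest of its group was found for 9 of the 150 groups of 4 values tested (genes and list medians at 3 h), and chance gives about 1 in 20. Below the other 3 arrays stood Fam162a on replicate 3 (-1.19, others -0.58 to -0.54), Pim1 on replicate 2 (-0.44, others -0.29 to -0.27), Vegfa on replicate 1 (-0.46, others -0.28 to -0.24), Slc2a3 on replicate 4 (-1.03, others -0.47 to -0.42) and Mcl1 on replicate 2 (-0.29, others -0.22 to -0.21). Klf1 on replicate 2 (-0.18, others 0.17 to 0.23) and Hk1 on replicate 4 (-0.69, others 0.06 to 0.19) lay on the other side of 0 from the rest, and so did Aldoc on replicate 3 (0.10, others -0.13 to -0.11). Rab1b on replicate 2 stood at 2.27, with the others between 0.16 and 0.50. The lower arrays of Fam162a and Slc2a3 pull their means, and the other 3 arrays of both genes were below 0 too.

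Some genes lay on 1 side of 0 on all 4 arrays at 3 h and on the other side on every array of a later time. They were 2 of 120 named genes against 7 h (1.69% of all features with values on every array did the same), 3 of 120 against 12 h (1.88% of all features) and 5 of 120 against 23 h (1.95% of all features). The counts against 7 h and 23 h rest also on the deposited signs of the 2 arrays in doubt. The named genes were partly chosen for values on 1 side at 3 h, those differences were not tested on their own, and the times may share the same 0 h reference RNA. Against 23 h these were Parp16, an ADP-ribosyltransferase of the endoplasmic reticulum (mean -0.35 at 3 h, 0.06 to 0.18 at 23 h), Nop58 (0.31, against -0.33 to -0.11), Ms4a1, the B cell antigen CD20 (-0.25, against 0.19 to 1.22), Psmd2 (0.20, against -0.05 to -0.003) and the erythroid factor Nfe2 (0.12, against -0.13 to -0.05). Against 12 h they were Ykt6 (0.29, against -0.33 to -0.12), the complex I subunit Ndufa2 (-0.21, against 0.02 to 0.52) and the transcription factor Klf2 (0.12, against -0.22 to -0.11). Against 7 h they were Scrt1 (-0.24, against 0.01 to 0.16) and Psmg2 (1.22, against -0.53 to -0.01).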

How the results depend on the processing

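Of 21 alternatives to the 3 h test, 17 gave 0 calls. The exceptions were 1 call with the Cy3 signs changed, 16 in the time course when both doubtful arrays were left out, a range of 0 to 1 when each 3 h array was left out (1, outside the 16, without replicate 3), and 19 with the sign of 7 h replicate 4 changed, an alternative chosen after seeing the data, which shared 11 of the 16. Against later times the counts were 6 when both doubtful arrays were left out, 1 with that sign changed, and 0 to 1 when each array was left out (1 without 7 h replicate 4). No pairing of arrays by replicate number was seen in the residuals. Arrays of different times with the same number had a mean correlation of -0.12 over 21 pairs. For another number with the same dye it was -0.10 over 21 pairs, and for opposite dyes 0.11 over 42. Removing the time and dye means by itself pushes same-dye correlations below 0, so the first value can be read only against the second. With the replicate number as a block, 0 features were called in both comparisons (1560 and 1529 at an unadjusted p under 0.05 in limma's test, smallest adjusted p 0.301 and 0.51).

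Changing the Cy3 signs turned 71 of 120 named genes and 19 of 30 list medians, and gave medians of 0.0407 for glycolysis, 0.11 for hypoxia, 0.0391 for sterol synthesis, 0.0045 for interleukin-3 targets, 0.0389 for ribosomal proteins, -0.0034 for G2 and M phase and 0.023 for neutrophil genes. Quantile normalization gave -0.34 for glycolysis, -0.12 for sterol synthesis and 0.10 for G2 and M phase, and scaling gave -0.10 for sterol synthesis. The Cy5 arrays alone gave -0.0488 for sterol synthesis and 0.0428 for G2 and M phase, and the Cy3 arrays alone gave -0.13 for sterol synthesis. Leaving out 1 array gave medians of -0.29 to -0.21 for glycolysis, -0.18 to -0.12 for hypoxia, -0.0941 to -0.044 for sterol synthesis, -0.11 to -0.0493 for interleukin-3 targets, -0.15 to -0.0524 for ribosomal proteins, 0.0608 to 0.079 for G2 and M phase and -0.124 to -0.0663 for neutrophil genes. Left-out arrays moved 48 of 120 named genes by over 1.5 times; Bnip3 kept -1.40 to -1.36 and Ndrg1 -1.23 to -1.07. The causes were not tested.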
